A study of Mus musculus with 2 samples.

Results

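The 1632 introns described here are those longer than 100 kb among the 233381 annotated autosomal introns of the mouse mm9 gene models. An intron was taken once for each combination of chromosome, start, end and strand over all transcripts of the GENCODE vM1 annotation. The members lie in 868 genes. Of these genes, 524 hold 1 such intron and 344 hold more, up to 16 in Pde4d, a cAMP phosphodiesterase gene with many alternative first exons. Members of the same gene often overlap each other or share a donor or an acceptor, so they are not independent of one another. By host gene, 1507 of the introns belong to protein-coding genes, 85 to lincRNA genes, 33 to processed transcripts and 7 to pseudogenes. Their median length is 146404 bases and the longest, in the predicted gene Gm20388, is 4384418 bases. The members nearest to the length limit are introns of Slc24a2 and Rbfox3 of 100004 and 100019 bases, and the introns just outside it, in 4930534B04Rik and Gm12132, have 99940 and 99925 bases.

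The study sequenced RNA from whole embryonic brains of reciprocal F1 crosses to look for expression that depends on the parent of origin. The deposited reads are 1 BxC library, from a C57BL/6J mother and a CastEi/J father, and 1 CxB library, from a CastEi/J mother and a C57BL/6J father, both at E17.5. C57BL/6J is the laboratory strain of the reference genome and CastEi/J is a wild-derived strain. According to the methods the CxB brain was male, whereas the sex of the BxC brain behind the deposited library is not given. Chromosome Y held 1852 reads in BxC and 18212 in CxB, and an effect of cross cannot be told apart from one of sex in any comparison of the libraries. Total RNA was extracted with Trizol, polyadenylated RNA was then purified with Dynabeads, and both brains carried 1 genome of each strain and no treatment. Since each cross has a single library, nothing measures the spread between brains. Every comparison between BxC and CxB below is therefore a comparison of 2 libraries, without a test between crosses.

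An intron is removed from the nascent transcript when the spliceosome joins the donor at its 5' end to the acceptor at its 3' end. RNA polymerase has to cross the whole intron before the acceptor exists in the RNA, which in a very long intron can take hours. Long introns are common in neuronal genes for adhesion molecules, receptors and ion channels, and they often separate the first exons from the rest of the gene. A read that spans the joined exons shows that the intron was removed from that molecule. A read inside the intron can come, among other sources, from RNA that still holds it or from another transcript in the same place.

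The splice sites of 3 of the introns with the most junction reads (Cadm1, Rbfox1 and Ntm) and of 2 with steep falls of read density (Pcdh9 and Prdm16) are given as they stand in the mm9 genome, 5' to 3' on the strand of the host gene. Each donor line has 8 exonic and 22 intronic bases, and each acceptor line has 22 intronic and 8 exonic bases. Capitals mark the first and last dinucleotide of the intron, which are GT and AG in all of them.

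Cadm1 donor: ccccacagGTaggttgtgggcacccgcgga
Cadm1 acceptor: ctttctctttcttttcttaaAGgtgatgga
Rbfox1 donor: agctgaggGTaggtgtgacctgcttgtaac
Rbfox1 acceptor: tctttttcttttcttcccacAGggtaatca
Ntm donor: accctcagGTagggaactgccactctacta
Ntm acceptor: tctgtttggtcttatcttgcAGgtgcacaa
Pcdh9 donor: ccagacagGTaaacgagcacttttactggt
Pcdh9 acceptor: tgtcctgtggtcttctttgtAGtctcagcg
Prdm16 donor: agccaaaaGTaagtctcccgcgctcgaccg
Prdm16 acceptor: tgatgctaccttatctctttAGgtgacggt

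These introns lie at chr9:47338589-47596053 (Cadm1, plus strand), chr16:6809342-7224403 (Rbfox1, plus), chr9:28986840-29219140 (Ntm, minus), chr14:93726100-94284915 (Pcdh9, minus) and chr4:153903041-154010831 (Prdm16, minus). All are coding-sequence introns. Of 2 further introns described below, that of Cntn1 lies in the 5' UTR at chr15:91881755-92046746 (plus) and that of Accn1 in coding sequence at chr11:80785117-81781131 (minus). In Cadm1 and Rbfox1, all 15 bases that begin 20 and end 6 bases before the exon are pyrimidines. Over the members, GT and AG end 94.4% of introns, and 99.8% of those detected by the read minimum given below, against 96.1% of all annotated autosomal introns and 99.1% of all detected ones. The donor sequence GTAAG, searched on the strand of the gene at the start of the intron, was present in 38.1% of the members and in 27.5% of all introns. In the same 15-base window before the acceptor, pyrimidines made up 79.2% of bases on average in the members and 75.2% in all introns.

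Where long introns lie in their transcripts differs from the annotation as a whole, but much less from introns of 20 to 100 kb. The first intron of the transcript accounts for 44.4% of the members and for 18.0% of all autosomal introns. It accounts for 42.1% of introns of 50 to 100 kb and 40.8% of those of 20 to 50 kb. By place, 1046 members lie in coding sequence, 299 in the 5' UTR, 28 in the 3' UTR and 259 in noncoding transcripts.

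At a limit of 10 reads in each library, junctions across introns over 100 kb were covered about as often as those of all autosomal introns. At a limit of 100 reads they were covered less often. A junction read is a 36-base read aligned in exactly 2 blocks whose gap is the intron, with at least 5 bases in each block. The members received 36236 such reads in BxC and 29822 in CxB, which is 281 and 272 RPM (reads scaled to a common library total). These are 0.461% and 0.465% of the junction reads over annotated autosomal introns, while the members are 1632 of those 233381 introns. At least 10 junction reads in each library, called detected here, were found for 451 members in 337 genes, or 27.6%, against 29.7% of all autosomal introns. The share was 27.8% for introns of 100 to 200 kb, 27.9% for 200 to 500 kb and 19.4%, or 7 of 36, for those over 500 kb. No junction read in either library was found for 624 members, or 38.2%, against 37.2% of all introns. A count of 0 allows up to 3 reads as a one-sided bound, which is 0.0233 RPM in BxC and 0.0273 RPM in CxB. The median over detected members was 37 junction reads (BxC) and 31 (CxB), against 39 and 33 over all detected introns. Of the protein-coding members 29.9% were detected, and of the 85 in lincRNA genes 1.

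The most reads crossed the first intron of Cadm1, which encodes a nectin-like adhesion molecule of synapses. It had 2760 junction reads in BxC (exact 95% Poisson limits 2658 to 2865) and 2079 in CxB (1991 to 2170). No other member reached 1000 reads in both libraries. Rbfox1, a neuronal regulator of splicing, had 1111 and 761 junction reads across an intron of 415 kb. Edil3, a secreted integrin ligand, had 1021 and 782. Cntn1, a cell adhesion molecule of the contactin family, had 996 and 776. The IgLON adhesion genes Ntm and Negr1 had 893 and 648 reads and 444 and 370 reads. Also among the 10 introns with the most reads were those of Spock1, a proteoglycan gene, with 340 and 370, the receptor phosphatase gene Ptprm with 382 and 288, and Celf2, an RNA-binding protein gene, with 351 and 283. Of the introns named here, that of Spock1 alone had more reads in CxB than in BxC. At least 100 reads in each library were found for 54 of the 1632 members (3.31%), in 50 genes. The same limit was reached by 11879 of the 233381 autosomal introns, a higher share.

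**Figure D1:**
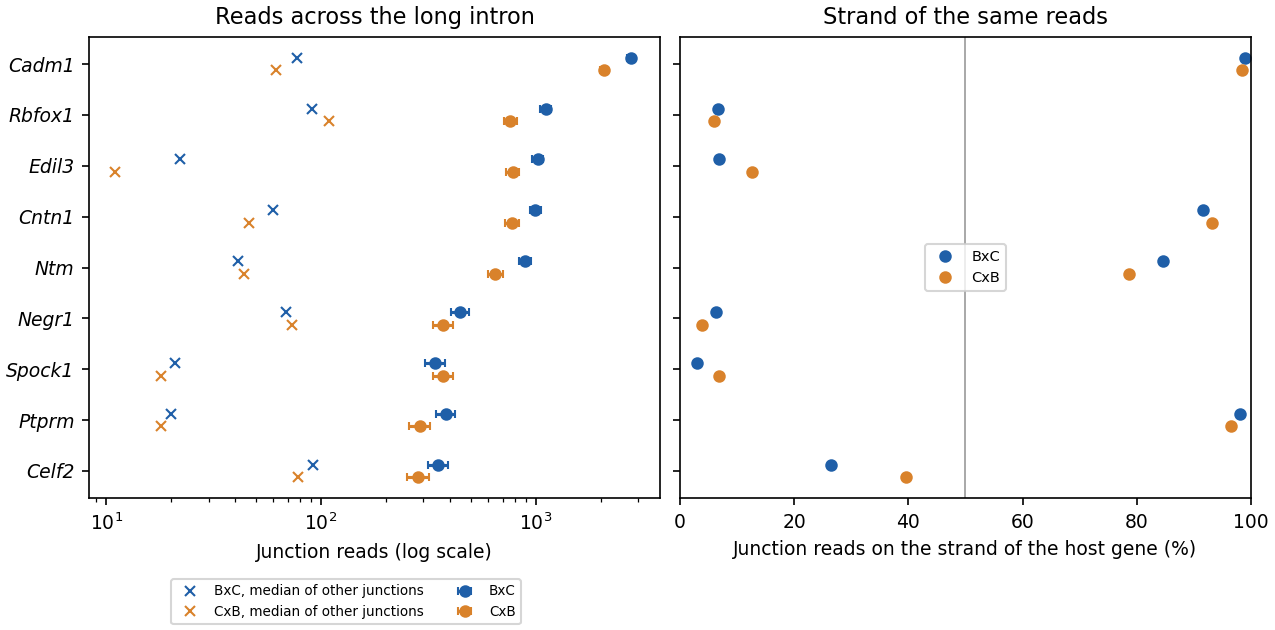
Junction reads across 9 of the 10 long introns with the most reads, 1 per gene, in BxC (blue) and CxB (orange). The left panel gives reads on a log scale with exact 95% Poisson limits (counting error only) as bars and, as crosses, the median of the other junctions of the same transcript; the right panel gives the share of the same junction reads on the host gene's strand, which is near either end of the scale for every intron except Celf2 and Ntm (84.5% in BxC and 78.7% in CxB).

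These reads came from few alignment positions. In Cadm1 the 2760 and 2079 reads started at 33 and 34 distinct positions (counted per strand, of at most 54), and a single position held 62.5% and 65.8% of them. In Ptprm, 14 and 17 positions held all reads. Over the 54 members that reached 100 reads in each library, the top position held a median of 26.8% of the reads in BxC and 23.5% in CxB, against 24.8% and 24.8% over the 11879 autosomal introns with that many reads. Reads of a member were also mostly of 1 strand, and which strand it was differed between members. Of the Cadm1 reads 99.0% in BxC were on the strand of the gene, and of the Spock1 reads 2.94%. Among the 54 members, 15 had at least 80% of their reads on the host strand in both libraries and 23 had at least 80% on the opposite strand in both. None had its reads on opposite strands in the 2 libraries. Such a preference for 1 strand was present in 70.4% of these members and in 62.7% of the 11879 introns. Summed over the members, 46.3% of junction reads in BxC and 44.6% in CxB were on the host strand. The strand of a read therefore does not assign it to the host gene here. Reads of a gene and of a transcript antisense to it cannot be told apart.

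Reads and positions placed long junctions differently against the other junctions of their transcripts. In Cadm1 the median over the other junctions was 77.5 reads (BxC) and 62 (CxB), far under those of the long intron. Among the 23 members whose other junctions reached a median of 100 reads in both libraries, the long junction had a median of 0.295 times as many reads in BxC and 0.291 times in CxB. That limit is on the other junctions alone, so it favours low ratios and leaves out introns such as that of Cadm1. The ratio was not computed for shorter introns, so these values and counts do not set long junctions apart. The long junction lay between 0.5 and 2 times the others in both libraries for 8 of the 23, and under 0.1 times for 9. The 9 include the long first intron of Rtn1, a reticulon gene, with 1 and 3 reads beside medians of 594 and 487, and introns of Abr, Tspan9 and Odz2 with 0 reads in both libraries. By distinct positions the median was 0.613 in BxC and 0.424 in CxB, and over the 14 detected of these members it was 0.585 and 0.698 by reads. With a median of at least 10 reads at the other junctions, a limit added after seeing the data, 614 members in 334 genes could be compared, with medians of 0.576 and 0.535. Of these, 367 had fewer reads than the median of the other junctions in both libraries, 167 had more in both, and 10 had at least 10 times as many.

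The 5 longest members had 0 to 6 junction reads. The introns of Gm20388 (4384 kb) and Fgfr2 (2957 kb), a fibroblast growth factor receptor gene, and of Arfip1 (1245 kb) had 0 in both libraries. As annotated, they hold exons of 156, 41 and 9 other genes, and that of Fgfr2 also holds 26 starts of its own gene. Whether introns of this extent exist in RNA was not tested. The 2 introns of Kcnip4, which encodes a potassium channel interacting protein, had 1 and 0 reads over 1042 kb and 2 and 6 reads over 1015 kb. The longest detected member was the first intron of Accn1, an acid-sensing ion channel gene, of 996 kb, with 14 junction reads in BxC and 20 in CxB. It was followed by introns of Lrrtm4 (786 kb; 14 and 11 reads), Cadm2 (667 kb; 85 and 43), Cntnap2 (594 kb; 39 and 25) and Pcdh9 (559 kb; 64 and 49). Lrrtm4, Cadm2, Cntnap2 and Pcdh9 all encode neuronal surface proteins with a role in adhesion. The Accn1 reads started at 5 and 8 distinct positions, and those of Pcdh9 at 18 and 15.

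Junction reads were compared between the crosses in the same 54 members. The log2 ratio of CxB to BxC RPM had a median of -0.04 and ran from -0.54 to 0.69. None was 2-fold higher or lower in CxB. Of the 11879 introns with that many reads, 0.0842% were at least 2-fold higher and 0.0168% at least 2-fold lower. By distinct positions, which have a maximum and were not scaled by depth, 1 of the 54 (1.85%) passed 2-fold in either direction, against 0.194% of the 11879. With the lower limit of 10 reads, 36 of 451 members (7.98%) passed it, against 5.30% of the 69243 autosomal introns with that many. The exact conditional 95% interval left out 0 for 15 members (27.8%), 8 higher and 7 lower, against 33.2% of the 11879 introns. These intervals cover counting error only and take no account of the pile-ups at single positions. The 3 highest ratios were those of Erc2, a protein of the presynaptic active zone, with 164 reads in BxC and 225 in CxB (log2 ratio 0.69, interval 0.39 to 0.99), Gtdc1 with 153 and 205 (0.66, 0.35 to 0.97) and Ptprn2, a phosphatase-like protein of secretory vesicles, with 150 and 198 (0.63, 0.32 to 0.95). By distinct positions the log2 ratios of Gtdc1 (-0.52) and Ptprn2 (-0.11) turned direction, whereas that of Erc2 was 0.42. The 3 lowest were Erbb4, the neuregulin receptor, with 232 and 136 reads (-0.54, -0.85 to -0.23), the heparan sulfate sulfotransferase gene Hs3st4 with 173 and 108 (-0.45, -0.81 to -0.09) and Adarb2, a member of the family of RNA-editing deaminases, with 160 and 101 (-0.43, -0.80 to -0.06). By positions these 3 had log2 ratios of -0.28, -0.45 and -0.30.

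Inside the introns, read density fell from the 5' to the 3' end. Body reads are reads in 1 block on the strand of the host gene that lie wholly inside the intron and touch no annotated exon of any gene. They were counted in 10 equal bins and divided by the start positions open to such reads. The slope is the log2 change of density over the whole intron from a log-linear (quasi-Poisson) fit, so that -1 is a 2-fold fall. Its SE comes from the scatter of the bins and is no replicate error. Of the members, 1382 had at least 100 body reads in each library and at least 1000 open positions in every bin. The median over all members was 712 body reads (BxC) and 666 (CxB), and 241 of the 250 not fitted had too few reads. The median slope was -1.58 in BxC and -1.58 in CxB. Density fell in both libraries in 1143 of the 1382 introns (82.7%), by at least 2-fold in both in 884 (64.0%), and rose in both in 187 (13.5%). Over all 7078 fitted introns longer than 20 kb the same shares were 67.0%, 42.9% and 23.7%, and over those of 20 to 100 kb they were 63.2%, 37.8% and 26.2%. The classes were not selected alike. The limits kept 3642 of 8546 introns of 20 to 50 kb, 2054 of 3051 of 50 to 100 kb and 1382 of 1632 members. The median SE in BxC was 0.87 for 20 to 50 kb and 0.71 for the members.

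Over all fitted introns the fall over the whole intron was larger with length up to 500 kb. Median lengths were 31108 bases for fitted introns of 20 to 50 kb and 257937 for those of 200 to 500 kb. A fall per kb was not computed, so these slopes do not show a steeper fall per kb. Median slopes in BxC were -0.52 for introns of 20 to 50 kb, -1.22 for 50 to 100 kb, -1.53 for 100 to 200 kb and -1.75 for 200 to 500 kb. The 34 fitted introns over 500 kb had -0.96 in BxC and -1.29 in CxB. Among detected members the medians for 100 to 200 kb and 200 to 500 kb were -1.85 and -1.83 in BxC and -1.74 and -1.90 in CxB, and length and slope had Spearman correlations of -0.059 and -0.092 across the 447 that could be fitted. The median density relative to the mean of the intron fell at every step from the first to the last bin in the members, from 1.33 to 0.420 in BxC and from 1.32 to 0.413 in CxB, or 3.18-fold and 3.19-fold. Introns of 50 to 100 kb also fell at every step in both libraries, and their first bin was 2.25-fold and 2.16-fold above the last. In introns of 20 to 50 kb the first bin was 1.43-fold and 1.42-fold above the last. Base composition and uniqueness hardly changed along the members. The median GC content was 41.3% in the first bin and 41.4% in the last, and 96.7% and 95.9% of their 36-base sequences occur once in the genome.

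**Figure D2:**
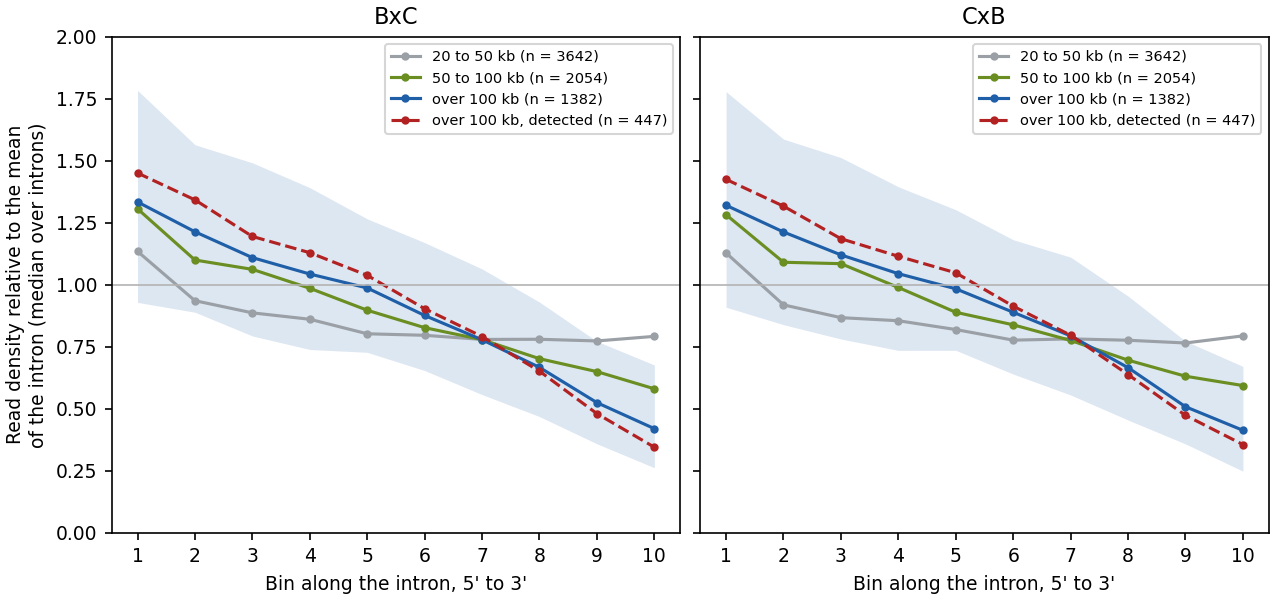
Median read density in 10 equal bins from the 5' to the 3' end of the intron, each relative to the mean of its intron, in BxC (left) and CxB (right). Lines are length classes with their number of introns, the dashed red line is the detected members over 100 kb, and the band holds the middle 50% of the members; the line for introns over 100 kb falls from 1.33 to 0.420 in BxC and the line for 20 to 50 kb is the flattest.

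Members whose junction was detected had a more uniform fall. Of the 447 detected members that could be fitted, 422 (94.4%) fell in both libraries and 16 rose in both. Among shorter introns the share falling was also higher when the junction was detected, at 83.2% against 75.1% of all fitted introns of 50 to 100 kb and 61.9% against 56.5% of those of 20 to 50 kb. The 447 detected members had median slopes of -1.84 in BxC and -1.77 in CxB. Their median profile fell from 1.45 in the first bin to 0.345 in the last in BxC and from 1.43 to 0.356 in CxB. The 420 fitted members without a junction read had medians of -1.08 and -1.15, and 67.1% of them fell in both. Detection used the junction reads and not the body reads, but both kinds of read come from the same libraries. Slopes of the 2 libraries lay close together. The median absolute difference between them was 0.26 over all 1382 members and 0.22 over the 447, and their Spearman correlation across members was 0.915 and 0.895, over introns that partly overlap and lie in the same genes. Reads of the opposite strand, which did not enter the fit, had median slopes of -1.55 in BxC and -1.57 in CxB.

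**Figure D3:**
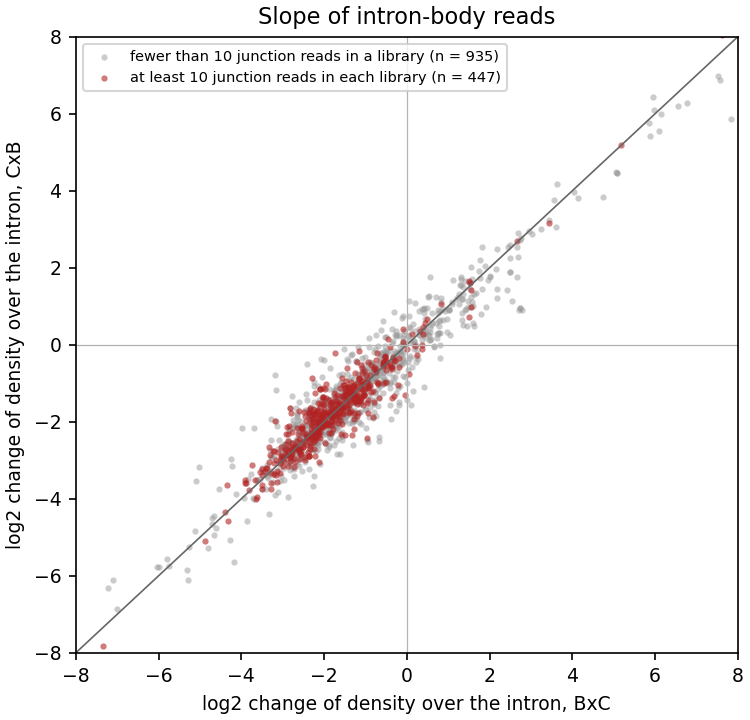
Slope of intron-body reads, as log2 change of density over the intron, in BxC (horizontal) and CxB (vertical) for the 1382 fitted members; red points have at least 10 junction reads in each library and grey points fewer in at least 1. The points follow the diagonal of equal slopes, most lie below 0 on both axes, and 24 introns fall outside the axes.

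What else the annotation places inside an intron went with the slope. The 874 fitted members without an annotated start of a transcript of the same gene inside had median slopes of -1.74 in BxC and -1.71 in CxB, and 86.7% fell in both libraries. The 508 with such a start inside had -1.28 and -1.35, and 75.8% fell. Members without an exon of another gene inside had medians of -1.66 and -1.61 against -1.49 and -1.54 for those with one, a small gap in CxB, and 85.8% against 78.9% fell in both libraries. Among detected members with neither inside, 194 of 200 fell in both libraries and 3 rose in both. Junction reads and density inside the intron went together only loosely. Over the 447 detected members, the Spearman correlation of junction reads with body reads per kb was 0.324 in BxC and 0.278 in CxB, whereas between the libraries that of junction reads was 0.864 and that of body reads per kb 0.992.

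By the mean slope of both libraries, the steepest falls among detected members with at least 1000 body reads in each library, 1 intron per gene, were in Prdm16, Ptprn2, Macf1, Dync1i1 and Ctnnd2. Prdm16, a zinc finger regulator of progenitor cells, had a slope of -7.33 (SE 2.25) in BxC and -7.81 (SE 2.47) in CxB across an intron of 108 kb. Its first bin held 67.6% and 70.4% of the body reads of the intron. Density over bins 2 to 10 went from 8.91 to 2.32 reads per kb in BxC and from 6.22 to 1.48 in CxB, without a steady fall between. Without the first bin the slopes were -1.29 and -1.12, and without the first and last bin -0.82 and -0.49. Ptprn2 had slopes of -4.32 (SE 0.52) and -4.59 (SE 0.54) over 142 kb, with a fall spread over most bins. Macf1, which links actin filaments to microtubules, had slopes of -4.39 (SE 0.44) and -4.34 (SE 0.43) and fell from 77.0 to 4.33 reads per kb between the first and last bin in BxC and from 78.6 to 5.44 in CxB. Dync1i1, an intermediate chain of cytoplasmic dynein, had slopes of -3.65 and -4.02, and Ctnnd2, a delta-catenin of neuronal junctions, of -3.82 and -3.77. Without the highest bin Ctnnd2 had -1.92 and -2.32 and Dync1i1 -2.61 and -2.97, whereas Ptprn2 (-4.00 and -4.26) and Macf1 (-4.31 and -3.92) moved less. In Ctnnd2 a window of 1 kb that starts 0.002 kb into the intron in BxC held 56.0% of the reads of its first bin, next to the exon. Pcdh9, over 559 kb, had slopes of -3.20 (SE 0.49) and -3.07 (SE 0.45) and fell from 38.2 to 2.43 reads per kb in BxC.

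Of the 5 most positive slopes under the same limits, 2 turned direction without the highest bin. In the intron of Pcdha11, a clustered protocadherin gene, the last bin held 72.8% (BxC) and 74.2% (CxB) of the body reads, nearly all of them (95.5% and 96.4%) in a window of 1 kb. In the first intron of 2610528E23Rik, bin 8 held 183922 of 184363 reads in BxC and 151395 of 151744 in CxB, at 163 and 151 distinct positions, nearly all within 1 kb. Without that bin the slopes turned to -1.33 and -1.29 for Pcdha11 and to -1.22 and -1.16 for 2610528E23Rik. Fam172a had slopes of 1.5 and 0.72 on the host strand but -1.01 and -1.51 on the opposite strand, and 0.42 and 0.12 without the highest bin. Kcnip1, a potassium channel interacting protein gene, had slopes of 1.56 (SE 0.68) and 0.99 (SE 0.69), and 1.42 and 0.79 without the highest bin. The bins 5, 7, 9 and 10 held the most reads in both libraries, and bin 6 the fewest. The junction across it had 39 and 31 reads.

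**Figure D4:**
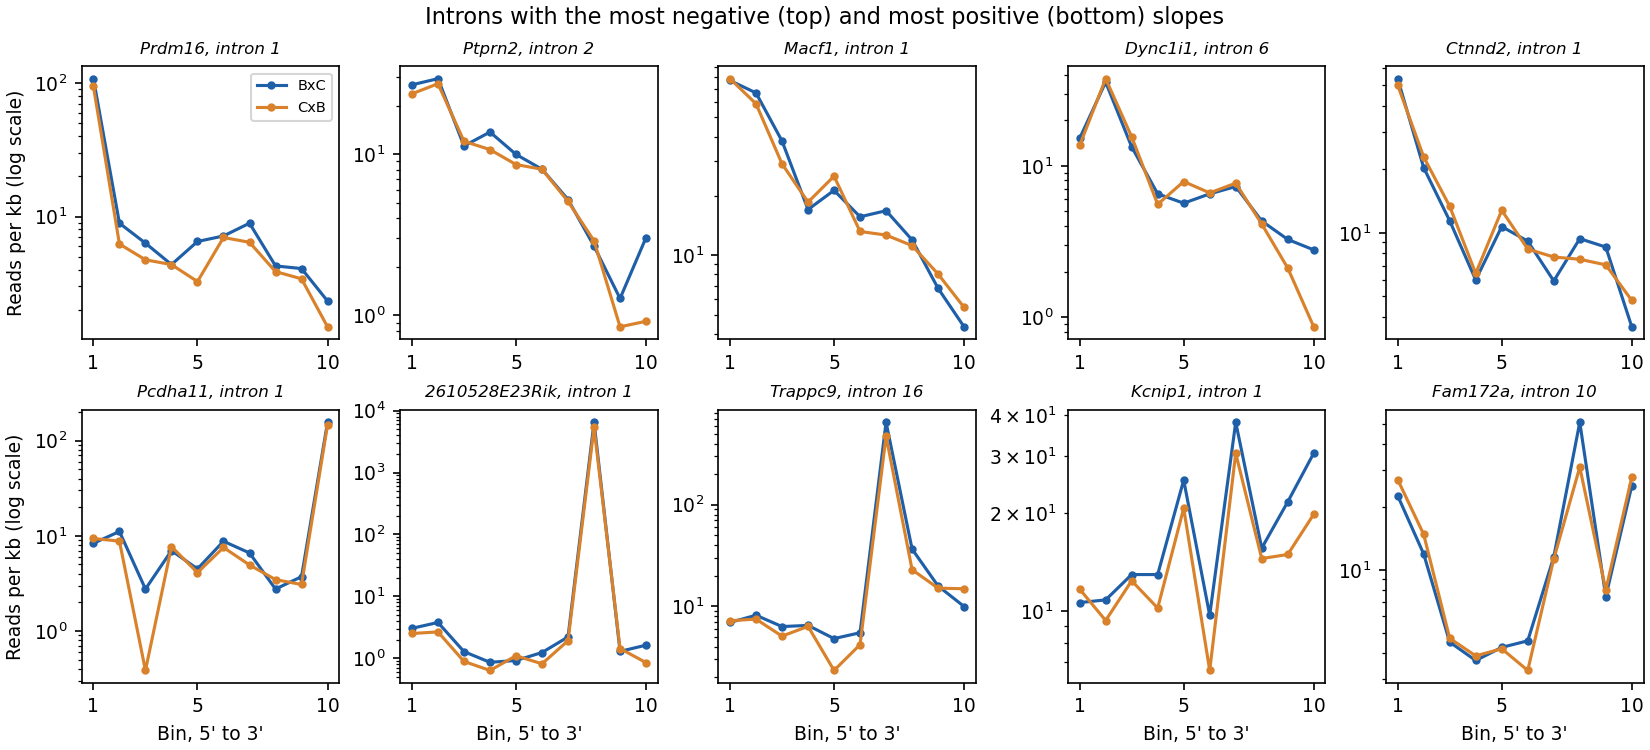
Reads per kb (log scale) in 10 bins from the 5' to the 3' end of the 5 detected introns with the most negative slopes (top) and the 5 with the most positive (bottom), in BxC (blue) and CxB (orange). The scale differs between panels; in the lower row Pcdha11, 2610528E23Rik and Trappc9 each have 1 bin far above the rest, up to 183922 reads in BxC for 2610528E23Rik.

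Trappc9, a gene of vesicle transport, was the remaining one. Its intron 16, with 75 and 32 junction reads, had slopes of 2.67 and 2.68 (1.94 and 2.10 without the highest bin), and holds Peg13, a noncoding RNA in the deposited catalog of imprinted genes. The 4.72 kb of the Peg13 entry, of which 4.69 kb was open to body reads, held 80.5% of the body reads of the intron in BxC and 82.5% in CxB, at 1851 and 1415 reads per kb against 15.1 and 10.1 in the rest. Of the genes that hold members, 8 (Trappc9 included) have an entry of their own among the 128 of the catalog, by name, synonym or position. They hold 24 members, of which Pde4d has 16. The other member in Trappc9, intron 17 of another transcript, overlaps intron 16 and had 0 junction reads and slopes of 21.0 and 18.5. Of its body reads, 87.4% in BxC and 90.7% in CxB lay in the Peg13 entry, close to its 3' end, so these slopes describe no gradual rise. In Kcnq1, a potassium channel gene, 96.6% and 95.3% of the body reads of intron 11 lay where it overlaps the entry of the antisense RNA Kcnq1ot1, at 83.3 and 61.3 reads per kb against 0.807 and 0.830 in the rest. The junction had 0 reads in both, and the slopes were -12.0 and -11.0, steeper than in any detected intron named above. In Airn, a noncoding RNA antisense to Igf2r, the long intron held 2185 and 1693 body reads and 0 junction reads. Ppp1r9a, whose product neurabin binds actin, had 50 and 64 reads and slopes of -2.31 and -2.06. In Snrpn, which encodes a protein of small nuclear ribonucleoproteins, intron 2 of an annotated transcript had 3 and 12 junction reads, and 51.2% and 34.9% of its body reads lay in the 5.69 kb of the Snrpn entry. Its slopes were 7.84 and 5.87. An intron of Commd1 had 0 junction reads in both libraries. Of the 16 introns of Pde4d, the intron of 298047 bases at chr13:110232548-110530594 came closest to the detection limit, with 18 and 9 reads. The intron at chr13:110562889-110693784 had 5 and 8.

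Where 2 long introns follow each other in a transcript, density rose again at the exon between them. This comparison was added after seeing the data. It was not made for pairs with shorter introns, so the counts do not set long introns apart. Among 255 such pairs in 134 genes, the first bin of the downstream intron was above the last bin of the upstream intron in both libraries in 229 and below it in both in 10. The median step was 3.77-fold up in BxC and 3.54-fold in CxB. In the 46 pairs with both junctions detected, in 33 genes, it was 4.11-fold and 4.33-fold, with 44 up and 2 down. The pairs of a gene can share introns. In Negr1 the density fell from 20.3 to 3.77 reads per kb over intron 1 in BxC, started intron 2 at 22.6, and ended it at 1.73. In CxB it went from 23.0 to 3.10, then from 21.2 to 2.62. In Ctnnd2 intron 1 ended at 3.59 reads per kb in BxC and 4.79 in CxB, and intron 2 started at 21.4 and 16.8. In Auts2, a regulator of transcription linked to neurodevelopment, intron 4 ended at 5.92 and 7.65 and intron 5 started at 45.1 and 41.2. Ntm did not show the step. Its intron 1 ended at 19.9 and 19.3 reads per kb and its intron 2 started at 18.9 and 17.8. The step between introns 6 and 7 of Cdh13 was 1.03-fold in BxC and 1.23-fold in CxB.

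**Figure D5:**
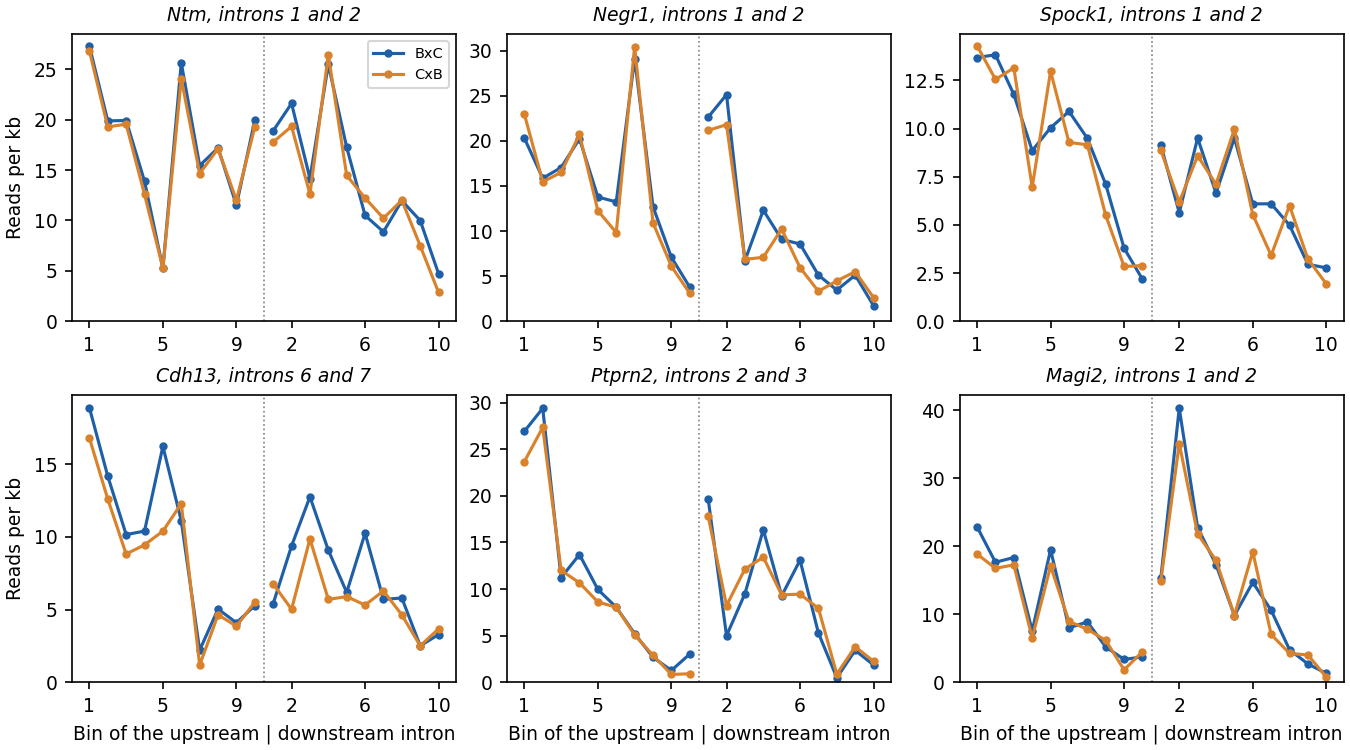
Reads per kb in 10 bins of 2 neighbouring long introns, upstream left and downstream right of the dotted line, for the 6 genes whose detected pair had the most junction reads, in BxC (blue) and CxB (orange). Bins run 5' to 3' and axes start at 0; density starts higher after the exon than it ended before it in Negr1, Spock1, Ptprn2 and Magi2, and not in Ntm.

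The host genes were grouped by function into lists chosen with earlier results of these data known. Counts are read beside 27.6% of all members detected and 82.7% of fitted members falling in both libraries, and no list was tested. IgLON and nectin-like adhesion genes had 11 of 18 members detected, and all 18 fell. Beside Cadm1, Ntm and Negr1, Opcml had 165 and 120 junction reads and slopes of -2.62 and -2.72. Neurexins and contactins had 14 of 40 detected and 37 of 40 falling. Beside Cntn1, introns with many reads were in Cntnap2 (103 and 64) and Cntnap5a (79 and 56).

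Axon guidance genes, mostly receptors but also some of their ligands, had 13 of 24 members detected, and all 22 that could be fitted fell. Unc5d and Unc5c, receptors for netrin, had 184 and 131 and 101 and 75 junction reads. Robo1 and Robo2, receptors for Slit, had 98 and 58 and 73 and 55, with slopes between -1.07 and -0.90. Protein phosphatase and cadherin receptors had 22 of 54 detected and 46 of 54 falling. All 22 detected ones fell, beside 94.4% of all detected members that could be fitted. Cdh13 had 286 and 342 junction reads across intron 7, Ptprg 79 and 71, and Ptprt 74 and 75.

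Scaffolds had 14 of 33 members detected and 27 of 32 falling. Ank3, which organizes the axon initial segment, had 189 and 148 junction reads but slopes of 0.32 (SE 0.63) and 0.35, within their SE of 0. Magi2 had 161 and 128 reads with slopes of -3.37 and -3.19, Shank2 had 97 and 96, and Dab1, a transducer of reelin, 88 and 75. Glutamate receptor genes had 21 of 34 members detected, in 11 of 12 host genes, and 33 of 34 falling. Grm7, Gria4 and Grin2b had between 51 and 93 reads. Ion channel genes had 9 of 29 detected and 23 of 29 falling. Kcnma1, a calcium-activated potassium channel, had 98 and 64, and Kcnq3 had 38 and 41 with slopes of -3.88 and -3.59.

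Neuregulin signalling genes had 5 of 10 members detected and 9 of 10 falling, with a median slope of -2.40 in BxC. Erbb4 had slopes of -3.00 and -3.15, and its ligand Nrg3 had 66 and 52 reads and slopes of -2.51 and -2.65 over 460 kb. Phosphodiesterase genes had 1 of 37 members detected, in Pde4b with 30 and 21 reads, and 22 of 31 falling. RNA-binding protein genes had 14 of 24 detected and 17 of 22 falling. Msi2 had 312 and 256 junction reads and slopes of -2.09 and -1.54, and Rbms1 had 234 and 194 reads and slopes of -1.10 and -0.52. Celf2, whose intron holds 6 annotated starts of the same gene, had slopes of -1.25 (SE 1.16) and -1.11 (SE 1.23). Transcription factor and chromatin genes had 15 of 51 members detected and 42 of 51 falling. Nfib had 171 and 137 junction reads, Auts2 133 and 99, and Tcf4 107 and 96.

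The 2 libraries held 128944754 reads (BxC) and 109719746 reads (CxB). Of the marker lists, 4 of 5 neuronal genes and all 5 neural progenitor genes were at 1 RPKM or more in BxC (RPM per kb of exon), and 1 neuronal symbol, Map2, was not matched. The 2 liver markers ran from 0 to 0.494 RPKM. The 2 heart markers ran from 0.225 to 1.09 and the 2 skeletal muscle markers from 0.120 to 2.32 RPKM, with Nppa (in BxC) and Acta1 (in both) over 1. Red blood cell genes ran from 68.6 to 187 RPKM over both libraries, and their part in the results was not tested.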

How the data were processed

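RNA-Seq reads of 36 bases from 1 BxC and 1 CxB whole brain at E17.5 were analysed from the deposited alignments. The authors aligned reads with Novoalign (version not given in the sources used here) to gene models and the mm9 genome, for part of the work also to junction sequences of the models, and kept unique alignments. Which of the alignments in the methods was deposited is not given in the sources used here. The deposited counts are raw whole numbers, 1 per alignment line, taken here as identical reads per line, a meaning inferred from the values. Under it, both library totals lie above the mean number of reads per library that the methods state, and this gap was not resolved. A junction outside the gene models and junction sequences that the authors aligned to could not receive reads. Those sequences also included skipped exons, and which members were left out is not known. The deposited catalog of imprinted genes gave only names and positions, matched by overlap or by name, with synonyms from a RefSeq table of assembly GRCm38.p6 (names only), and 0 columns could not be assigned.

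Introns came from GENCODE vM1, which uses the same build, and the place and number of an intron from its longest protein-coding transcript where there was one. Junction reads were counted on either strand and body reads on the host strand, with annotated exons masked and 10 bins per intron. The libraries held 128944754 and 109719746 reads. Poisson and binomial 95% intervals cover counting error only. No test between crosses was made, as each has 1 library. A member counts as detected with at least 10 junction reads in each library. Ratios were given from 100 junction reads on, and slopes from 100 body reads on. The methods describe strand-marking by dUTP, but the junction reads of these files do not follow the strand of the gene.

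The members, gene lists and comparisons were chosen with earlier results of these data known. Named were the 10 introns with the most junction reads, the 5 longest and 5 longest detected, the 5 most negative and 5 most positive slopes (detected introns from 1000 body reads on), the 3 highest and 3 lowest ratios, catalog hosts, and up to 4 introns per list. Some introns that these rules name, and some splice-site sequences, are not reported here. Other introns named in the text were picked with their values in view: those of the steps, the comparison within transcripts and the length limit. Alternatives changed the counting of positions, overhang, strand, mask, bins, minima, length and scaling. The fits and intervals were tested on simulated data. The simulated bins scattered less than those of the median member, and pile-ups at single positions were not simulated. How well SEs and intervals cover the scatter of these data was therefore not tested. Calculations used Python 3.11.15, numpy 2.4.6, pandas 2.3.3, scipy 1.17.1 and numba 0.67.0.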

Additional observations from a re-analysis of the deposited data

How the results depend on the processing

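No paired analysis was possible because each cross has 1 library and no comparison rests on a test. The number of detected members, 451 (27.6%) as reported, was 256 (15.7%) with at least 10 distinct positions and 217 (13.3%) with host-strand reads only. It was 54 (3.31%) with at least 100 reads, and 24.2% were detected with an overhang of at least 8 bases. The share hardly changed with the length limit, at 1300 of 4683 introns (27.8%) over 50 kb and 105 of 387 (27.1%) over 200 kb. Among members that share no donor or acceptor, chosen after seeing the data, the share was 32.3%. At the limit of 100 reads, 11879 of all 233381 autosomal introns passed, a higher share than that of the members. For the limits on positions, host strand and overhang, no share over all introns is given, so whether those drops are particular to the members was not tested. The median slope stayed below 0 under every alternative. In BxC and CxB it was -1.40 and -1.39 without the highest bin, -0.80 and -0.79 as the log2 ratio of the intron's 3' to its 5' part (a measure that spans a shorter distance than the slope, so the values are not on the same scale), -1.71 and -1.68 with at least 1000 body reads, -1.36 and -1.34 over 50 kb, -1.73 and -1.72 over 200 kb, -1.49 in BxC without the first and last bin, and -1.50 in CxB by distinct positions. The share falling in both libraries (and at least 2-fold) was 78.1% (58.0%) without the first and last bin and 78.2% (55.4%) over 50 kb. The share falling at least 2-fold was 58.0% without the highest bin, 69.6% with at least 1000 body reads and 71.8% over 200 kb. Chosen after seeing the data were the restrictions to members without an exon of another gene (-1.66 in BxC; 85.8%, 67.1%), without an internal start (-1.74 and -1.71; 86.7%, 70.1%) and with a detected junction (-1.84 and -1.77; 94.4%, 78.1%), and also the opposite strand and unique 36-base positions, which moved no median or share beyond its interval.

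Single introns turned direction in few cases. Pcdha11 had -1.36 and -0.94 without the first and last bin and -1.33 and -1.29 without the highest bin, and 2610528E23Rik -1.22 and -1.16 without the highest bin. Fam172a had -0.24 by distinct positions and -0.34 on both strands in CxB, and -1.01 and -1.51 on the opposite strand. Between crosses, 1 member passed 2-fold by distinct positions, and with at least 10 reads 36 of 451 did. By positions the ratio of Gtdc1 was -0.52 and that of Ptprn2 -0.11. The ratio to the other junctions was 0.613 in BxC by positions, and 0.576 and 0.535 in BxC and CxB with a median of at least 10 reads at the others. The cause of these changes was not tested. With a median of 37 and 31 reads at a detected junction, counting error limits the ratio between crosses.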

Other observations

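Of the 344 genes with more than 1 member, 68 held more than 1 detected long intron, beside 27.6% of all members detected. Apart from Pde4d, the genes below were picked from those with the most detected members. Ptprd, a receptor phosphatase of synapses, had 6 of its 11 members detected, Cdh13, a cadherin anchored to the membrane by a lipid, 5 of 6, and Grm7, a metabotropic glutamate receptor, 5 of 6. Auts2 had 4 of 8. In Ctnna2, a catenin of neurons, Dpp10, a potassium channel subunit, the teneurin gene Odz3, Pcdh9 and Ptprn2, all 4 members were detected. Macrod2, a gene of ADP-ribose removal, had 3 of 9 detected, Nrxn3 3 of 10 and Pde4d 0 of 16.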
